A study of Mus musculus with 16 samples.

Results

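The 9 genes described here are the early growth response genes Egr1, Egr2, Egr3 and Egr4, the orphan nuclear receptor genes Nr4a1, Nr4a2 and Nr4a3, and the activity-regulated genes Arc and Npas4. They were chosen by symbol, 1 probe set per gene, the one with the highest mean over the arrays, from 19505 genes measured in sorted cells of the mouse olfactory mucosa. The 9 genes have 11 probe sets, since Egr3 has 3, and all 9 genes are accounted for below. The cells came from 24 S100a5-tauGFP mice of both sexes aged 7 to 12 weeks, in which green fluorescent protein is made where S100a5 is active; S100a5 encodes a calcium binder whose level in olfactory neurons goes up with their activity. Each mouse was held alone for 40 h in a chamber with clean air at 3.1 L/min, and from 26 h on received a 10 s pulse of octanol odor or of vehicle (filtered air) every 20 min. Cells of 3 mice were pooled, dissociated and sorted by fluorescence into GFP+ and GFP- cells, and RNA of each was put on its own Clariom S array. This gives 4 groups of 4 arrays each: GFP+ cells after vehicle, GFP- cells after vehicle, GFP+ cells after octanol and GFP- cells after octanol. All 4 groups carry the same reporter, so no comparison is with mice that lack it, and GFP- cells are every other sorted cell of the mucosa, mature neurons included.

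Immediate early genes are transcribed within minutes of a stimulus, without new protein synthesis, when calcium and kinase signals reach factors already bound at their promoters, such as CREB, SRF and MEF2. Egr1 to Egr4 encode zinc finger transcription factors, and Nr4a1 to Nr4a3 encode nuclear receptors that act without a known natural ligand. Arc encodes a synaptic protein that removes AMPA receptors from the membrane, and Npas4 encodes a transcription factor that is induced by calcium entry and is largely specific to neurons. Several of them are read as marks of recent activity, Egr1 for example in vomeronasal neurons, but myeloid and other cells also transcribe the Egr and Nr4a genes.

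RefSeq promoter windows on mouse assembly GRCm38.p6 were matched for 6 of the 9 genes. Those of the Nr4a genes, of 1 start of Egr2 and of Npas4 are shown. They were picked because the first 4 genes were lower in GFP+ cells, while Npas4 was under background on every array. Whether Npas4 moved is therefore not known. Each window holds the 250 bases before the annotated start, read 5' to 3' toward the gene. Capitals mark every match to the cyclic AMP response element (CRE) half-site TGACG, the EGR site GCGNGGGCG, the SRF site called the CArG box, the NR4A site called NBRE (AAAGGTCA) and the TATA box letters TATAAA, each searched on both strands. The windows lie at chr15:101266596-101266845 (+ strand) for Nr4a1, chr2:57124004-57124253 (- strand) for Nr4a2, chr4:48045055-48045304 (+ strand) for Nr4a3, chr10:67537619-67537868 (+ strand) for Egr2 and chr19:4989972-4990221 (- strand) for Npas4.
Nr4a1: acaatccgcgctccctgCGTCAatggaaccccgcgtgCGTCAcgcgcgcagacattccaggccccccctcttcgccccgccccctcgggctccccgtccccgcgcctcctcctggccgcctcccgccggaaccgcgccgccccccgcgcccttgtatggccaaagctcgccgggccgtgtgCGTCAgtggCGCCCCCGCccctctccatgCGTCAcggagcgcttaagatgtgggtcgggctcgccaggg
Nr4a2: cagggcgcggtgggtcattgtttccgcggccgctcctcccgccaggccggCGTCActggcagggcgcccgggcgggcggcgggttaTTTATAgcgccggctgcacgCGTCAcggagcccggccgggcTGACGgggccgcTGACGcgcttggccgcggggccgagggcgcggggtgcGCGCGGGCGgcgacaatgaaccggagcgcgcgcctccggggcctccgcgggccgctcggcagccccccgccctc
Nr4a3: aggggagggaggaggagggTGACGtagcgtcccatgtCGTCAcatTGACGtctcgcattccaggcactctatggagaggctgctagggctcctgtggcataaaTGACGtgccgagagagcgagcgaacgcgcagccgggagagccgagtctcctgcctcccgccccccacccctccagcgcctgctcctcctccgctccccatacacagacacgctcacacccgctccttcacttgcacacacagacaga
Egr2: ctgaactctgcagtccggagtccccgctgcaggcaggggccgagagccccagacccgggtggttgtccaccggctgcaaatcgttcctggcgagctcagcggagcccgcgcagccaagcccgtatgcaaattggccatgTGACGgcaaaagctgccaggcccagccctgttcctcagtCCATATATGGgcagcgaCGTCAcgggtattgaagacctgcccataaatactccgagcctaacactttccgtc
Npas4: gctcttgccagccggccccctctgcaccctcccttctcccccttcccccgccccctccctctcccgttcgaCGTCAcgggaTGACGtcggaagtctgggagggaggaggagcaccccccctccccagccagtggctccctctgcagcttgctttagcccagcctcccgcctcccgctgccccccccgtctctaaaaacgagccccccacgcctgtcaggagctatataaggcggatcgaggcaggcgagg
The windows of Nr4a1, Nr4a2 and Nr4a3 hold 4 CRE half-sites each, a number reached by 0.137% of 32851 promoter windows of the same length. Egr2 has 5 annotated starts, and the window shown, of the third, holds 2 half-sites and a CArG box. The overlapping windows of starts 4 and 5 hold the same numbers, that of start 2 holds a CArG box only and that of start 1 holds 0 matches. Npas4 and Egr4 also hold 2 half-sites, and 2 or more occur in 3.90% of all windows. An EGR site occurs once in Nr4a1, 60 to 52 bases before the start, and once in Nr4a2, 74 to 66 bases before it, against 4.70% of windows with one. The TATAAA letters were matched in Nr4a2 on the other strand, and 12.4% of windows have them, while CArG boxes occur in 1.47%. The full CRE TGACGTCA and the NBRE were not matched in any of the windows of these genes. No overlap between matches of different motifs occurs in the windows shown, and a match describes letters only.

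The values are log2 signals, and 6.32 log2 was taken as background: of the means of 321 vomeronasal receptor genes, 95% lie under it. Over the 16 arrays, 12890 genes (66.1%) had a mean above it, and the arrays' medians were 7.42 to 7.70 log2. The labelled tissue matches its markers in that all 12 listed markers of mature olfactory sensory neurons were above background in all 4 groups. Of the 9 genes, by the probe set used, Egr1, Egr2, Egr3 and Nr4a1 were above background on every array, Npas4 on none, and Egr4, Nr4a2, Nr4a3 and Arc on some. Levels of different genes are not compared, because each probe set has its own response. P-values between the fractions, or on how that difference changes with octanol, measure the spread over pools of the difference within a pool. Those of octanol against vehicle within a fraction measure the spread between pools of mice. The number of arrays limits the precision of both.

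**Figure D1:**
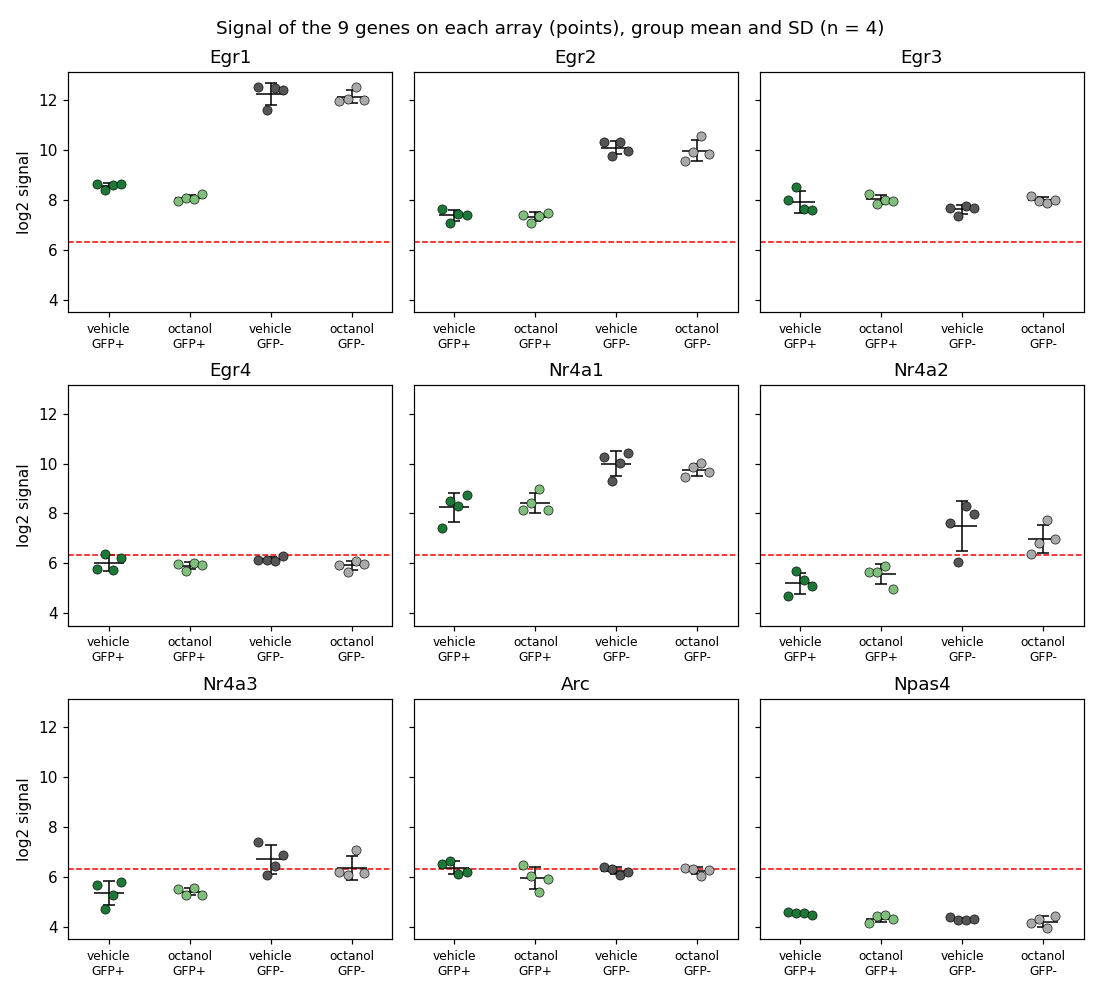
Log2 signal of each of the 9 genes (vertical axis) on each array (points) in the 4 groups, with the group mean and SD (n = 4) as bars and the background of 6.32 log2 as a dashed red line. Egr1, Egr2 and Nr4a1 stand higher in both GFP- groups than in both GFP+ groups, and Npas4 stays under background on every array.

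GFP+ cells held less Egr1, Egr2, Nr4a1, Nr4a2 and Nr4a3 RNA than GFP- cells from the same pools, after vehicle and after octanol alike. Egr1 was 12.8-fold lower after vehicle and 16.7-fold lower after octanol, and Egr2 was 6.58-fold and 6.27-fold lower. None of the 9 genes passed as higher in GFP+ cells in the values as deposited, and Egr3, Egr4, Arc and Npas4 did not pass the test in either exposure. With each array centred on its own median, Egr3, Arc and Npas4 passed as higher after vehicle and Npas4 after octanol. In bulk samples, fewer cells that make a transcript and less RNA per cell cannot be told apart. After vehicle 5 of 9 genes were lower at an adjusted p under 0.05, where 13.5% of all genes tested were lower and 14.7% higher. After octanol again 5 of 9 were lower, where 13.2% of all genes were lower and 16.7% higher. The median difference of the 9 genes was -1.35 log2 after vehicle and -0.96 log2 after octanol, beside 0.13 and 0.14 log2 over all genes. These tests are limma's on all 16 arrays with the pool as a block, and p-values were adjusted by Benjamini-Hochberg across the whole set of genes.

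Egr1 encodes the best studied of the early growth response factors. Its signal after vehicle was 8.63, 8.41, 8.61 and 8.64 log2 in GFP+ cells of pools 1 to 4, and 12.52, 11.60, 12.50 and 12.40 log2 in GFP- cells. After octanol it was 7.94, 8.07, 8.04 and 8.25 log2 in GFP+ cells and 11.98, 12.05, 12.54 and 12.00 log2 in GFP- cells. The fractions do not overlap in either exposure, and the difference within a pool ran from -4.50 to -3.19 log2. The fitted difference was -3.68 log2 after vehicle (SE 0.15, adjusted p = 1.42e-07 in limma) and -4.06 log2 after octanol (SE 0.15, adjusted p = 1.05e-07 in limma). Both GFP- groups stand highest and do not differ beyond their spread, at 12.26 ± 0.44 and 12.14 ± 0.27 log2 (SD, n = 4).

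Egr2, a factor of Schwann cell myelination that macrophages and lymphocytes also use, followed the same order. After vehicle it stood at 7.62, 7.07, 7.44 and 7.38 log2 in GFP+ cells and at 10.33, 9.77, 10.31 and 9.97 log2 in GFP- cells. After octanol the values were 7.40, 7.06, 7.36 and 7.48 log2 in GFP+ cells and 9.57, 9.93, 10.55 and 9.84 log2 in GFP- cells. The fractions are separate and the exposures overlap within each fraction. The fitted difference was -2.72 log2 after vehicle (SE 0.16, adjusted p = 1.0e-06 in limma) and -2.65 log2 after octanol (SE 0.16, adjusted p = 1.15e-06 in limma). Egr1 differed between the fractions by more than Egr2 in 8 of 8 pools, by 1.19 log2 units on average (SD 0.39), a description with no test. Each probe set has its own response, so this order of signal differences need not be that of the RNA.

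Nr4a1 (Nur77), a nuclear receptor induced by calcium in neurons and by antigen receptor signals in lymphocytes, was lower in GFP+ cells by a smaller margin of signal. After vehicle it stood at 7.43, 8.51, 8.29 and 8.74 log2 in GFP+ cells and at 10.25, 9.29, 10.04 and 10.41 log2 in GFP- cells. After octanol it was 8.14, 8.41, 8.97 and 8.14 log2 in GFP+ cells and 9.45, 9.85, 10.04 and 9.65 log2 in GFP- cells. No GFP+ array reaches the lowest GFP- array of its exposure. The difference within a pool after vehicle ran from -2.82 log2 in pool 1 to -0.78 log2 in pool 2, and after octanol from -1.51 to -1.07 log2. The fitted difference was -1.76 log2 after vehicle (SE 0.25, adjusted p = 5.34e-04 in limma), which is 3.38-fold. After octanol it was -1.34 log2 (SE 0.25, adjusted p = 0.00305 in limma), which is 2.52-fold.

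Nr4a2 (Nurr1), a factor of dopaminergic neuron identity, was under background on all 8 GFP+ arrays. Its GFP+ values were 4.69, 5.70, 5.32 and 5.11 log2 after vehicle and 5.67, 5.67, 5.91 and 4.99 log2 after octanol. In GFP- cells it stood at 7.61, 6.07, 8.32 and 7.97 log2 after vehicle and at 6.39, 6.83, 7.74 and 6.97 log2 after octanol. Pool 2 after vehicle is the 1 GFP- array under background. For a bound, GFP+ values under background were counted as background, and GFP- values were left as measured. Such a bound allows for background only and not for the spread over pools, so a smaller fold is not excluded. The bound for Nr4a2 is at least 2.26-fold lower after vehicle (fitted difference -2.29 log2, SE 0.40, adjusted p = 0.00195 in limma). After octanol it is at least 1.59-fold lower by this rule (-1.42 log2, SE 0.40, unadjusted 95% interval -2.32 to -0.53, adjusted p = 0.0239 in limma). The call after octanol was lost when octanol pool 2, 3 or 4 was left out, with differences of -1.51, -1.29 and -1.24 log2 (adjusted p = 0.0532, 0.0823 and 0.0932 in limma).

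Nr4a3 (Nor1), the third receptor of the family, was likewise under background on all 8 GFP+ arrays. It read 5.66, 4.71, 5.25 and 5.78 log2 in GFP+ cells after vehicle and 5.51, 5.29, 5.55 and 5.27 log2 after octanol. In GFP- cells it read 7.41, 6.08, 6.44 and 6.87 log2 after vehicle and 6.18, 6.06, 7.08 and 6.15 log2 after octanol. The fractions do not overlap, but 3 of 4 GFP- arrays after vehicle and 1 of 4 after octanol were above background. The bound is therefore at least 1.31-fold lower after vehicle (fitted difference -1.35 log2, SE 0.16, adjusted p = 1.32e-04 in limma) and at least 1.04-fold lower after octanol (-0.96 log2, SE 0.16, adjusted p = 0.00129 in limma).

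**Figure D2:**
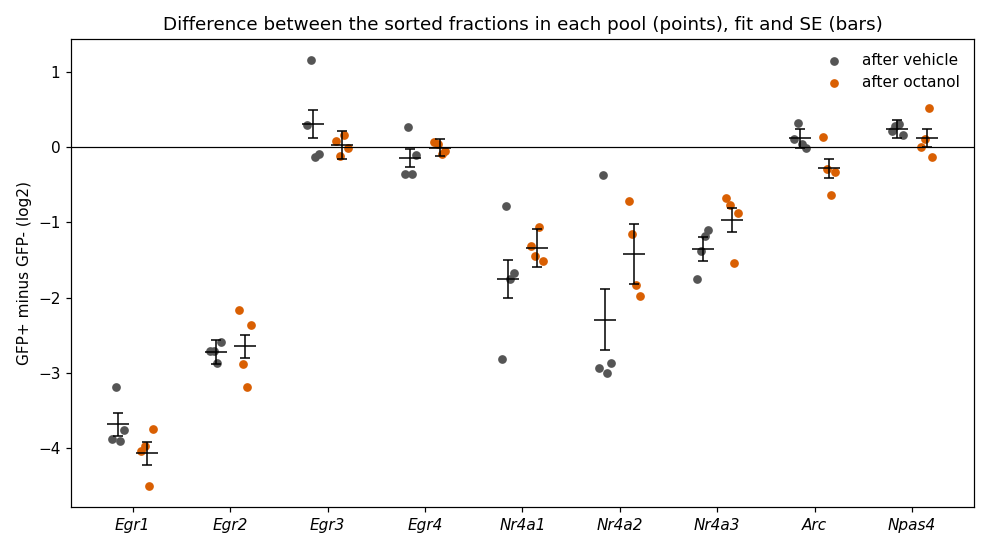
Difference between GFP+ and GFP- cells (log2, vertical axis) for each gene in each pool (points) after vehicle (grey) and after octanol (orange), with the fitted difference and its SE as bars. Egr1, Egr2, Nr4a1, Nr4a2 and Nr4a3 lie under 0 in all 8 pools, and the other genes lie on both sides of it.

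Egr3, a factor needed for muscle spindles and induced by antigen receptor signals, did not show one pattern across its 3 probe sets. The one used stood at 7.98, 8.51, 7.63 and 7.59 log2 in GFP+ cells after vehicle and at 7.69, 7.36, 7.76 and 7.68 log2 in GFP- cells. After octanol it stood at 8.26, 7.83, 8.02 and 7.97 log2 in GFP+ cells and at 8.18, 7.95, 7.87 and 7.99 log2 in GFP- cells. The fractions overlap, and the fitted difference was 0.30 log2 after vehicle (interval -0.12 to 0.73, adjusted p = 0.252 in limma) and 0.02 log2 after octanol (interval -0.40 to 0.44, adjusted p = 0.933 in limma), with unadjusted 95% intervals here and below. The deposited names of this probe set and of the second, which ran from 7.21 to 7.94 log2, carry the word unmapped. The third ran from 3.19 to 3.78 log2, under background on every array, with a difference of -0.35 log2 after vehicle (adjusted p = 0.0312 in limma). After quantile normalization or with each array centred on its median, the probe set used passed as higher in GFP+ cells after vehicle, by 0.64 log2 under either (adjusted p = 0.0192 and 0.0125 in limma). Whether the probe set used measures Egr3 is uncertain, and neither the level of Egr3 nor its direction between the fractions is settled by these arrays.

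Egr4, the fourth early growth response factor, Arc and Npas4 lay near or under background. Egr4 ran from 5.73 to 6.39 log2 in GFP+ cells after vehicle, 6.09 to 6.31 in GFP- cells after vehicle, 5.70 to 6.01 in GFP+ cells after octanol and 5.66 to 6.11 in GFP- cells after octanol, with 1 of 16 arrays above background. Its difference between the fractions was -0.14 log2 after vehicle (interval -0.41 to 0.12) and -0.01 log2 after octanol (interval -0.27 to 0.26). Arc read 6.52, 6.65, 6.12 and 6.18 log2 in GFP+ cells after vehicle and 6.42, 6.33, 6.08 and 6.19 log2 in GFP- cells. After octanol Arc read 6.49, 6.04, 5.41 and 5.92 log2 in GFP+ cells and 6.36, 6.33, 6.05 and 6.26 log2 in GFP- cells. Values of Arc straddle the background in every group, and its difference was 0.11 log2 after vehicle (interval -0.17 to 0.40) and -0.28 log2 after octanol (interval -0.57 to 0.0028, adjusted p = 0.123 in limma). Without octanol pool 1, Arc passed as lower in GFP+ cells after octanol (-0.42 log2, adjusted p = 0.0407 in limma).

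Npas4 was under background on all 16 arrays. Its values were 4.60, 4.57, 4.56 and 4.46 log2 in GFP+ cells after vehicle, and 4.39, 4.29, 4.25 and 4.30 log2 in GFP- cells. After octanol they were 4.14, 4.43, 4.46 and 4.30 log2 in GFP+ cells and 4.14, 4.32, 3.95 and 4.43 log2 in GFP- cells. The fractions after vehicle do not overlap, but both are under background and no fold is given. With Npas4 and the 5 lower genes, 6 of 9 genes did not overlap after vehicle and 5 of 9 after octanol, where 27.7% and 28.0% of all genes did not. Centring each array on its median made Npas4 pass as higher in GFP+ cells in both exposures, and Arc after vehicle, while centring on odorant receptors made Egr4 pass as lower in both and Arc after octanol. Of the 9 genes, the 5 called lower kept that direction and their call under all 3 scalings.

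Markers of several other cell types moved with the fraction. Among all genes, 13.5% were lower and 14.7% higher in GFP+ cells after vehicle, and 13.2% and 16.7% after octanol. All 8 measured monocyte and macrophage markers were lower in GFP+ cells in both exposures, and so were all 8 neutrophil markers. The log2 of their summed signals after vehicle was 10.54 to 11.15 in GFP+ and 16.65 to 17.34 in GFP- cells for monocytes and macrophages, and 10.01 to 11.48 against 18.53 to 19.25 for neutrophils. After octanol the ranges were 10.57 to 12.37 against 16.63 to 17.58 and 11.24 to 14.19 against 18.87 to 19.55. In GFP+ cells 4 of 8 neutrophil markers after vehicle and 3 of 8 after octanol were under background (Mmp9, Csf3r and Camp in both, Mmp8 after vehicle), and no monocyte and macrophage marker was. Lymphocyte markers were lower for 6 of 6 after vehicle (8.22 to 8.51 against 10.64 to 13.40) and 5 of 6 after octanol, with 5 of 6 under background in GFP+ cells. Microvillar and tuft cell markers were lower for 7 of 7, progenitor markers for 4 of 4 and immature neuron markers for 9 of 12 in both exposures. Sustentacular cell markers were lower for 4 of 6, Bowman gland markers for 3 of 5 and endothelial markers for 3 of 6 in both. Only 1 of the 6 endothelial markers, Pecam1, had a mean above background in GFP- cells of either exposure, and 0 had one in GFP+ cells. The endothelial calls therefore rest mostly on signals under background. Other lists went both ways or the other way. Of 5 horizontal basal cell markers, 2 were lower in both exposures and 1 was higher after octanol, and of 4 ciliated respiratory cell markers 0 were lower, with 1 higher after vehicle and 2 after octanol. Of 5 ensheathing glia markers 1 was lower in both and 1 higher after vehicle, and of 5 fibroblast markers 1 was lower after vehicle and 0 after octanol. In these lists, the basal cell markers Krt5, Krt14 and Trp63, the glia markers Npy and Frzb and the fibroblast marker Col3a1 were under background in all 4 groups. Markers of mature neurons were higher in GFP+ cells for 5 of 12 after vehicle and 6 of 12 after octanol, with summed signals of 20.72 to 20.81 against 20.54 to 20.68 log2 after vehicle. The part of these cells in the lower Egr and Nr4a signals was not tested.

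The genes around the 9 in the same pathway were counted from lists written from general knowledge. Beside them, 13.5% of all genes were lower and 14.7% higher after vehicle, and 13.2% and 16.7% after octanol. The medians over all genes were 0.13 and 0.14 log2. Of 27 other immediate early genes, 18 were lower and 2 higher in GFP+ cells after vehicle, and 20 lower and 1 higher after octanol, with medians of -1.11 and -1.07 log2. The largest differences after vehicle were those of Zfp36, which encodes a protein that destabilizes cytokine messages (-5.19 log2), Fos (-5.05 log2), Ier3 (-4.74 log2, at least 23.7-fold) and Btg2, an antiproliferative gene (-4.14 log2). After octanol the same genes differed by -5.06, -5.07, -4.62 and -4.65 log2.

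Upstream of these genes, 25 of 29 listed calcium, MAP kinase, CREB, SRF and MEF2 regulators were measured, and 5 were lower and 0 higher in GFP+ cells in both exposures. They were Mef2c, a MEF2 factor (-2.56 log2 after vehicle, at least 5.07-fold), Elk3, an SRF partner (-1.16), Mrtfa, an actin-regulated SRF coactivator (-0.98), and the calcineurin subunit genes Ppp3ca (-0.68) and Ppp3r1 (-0.38), the last named after its value was seen. The median of the list was -0.03 log2 after vehicle and -0.08 log2 after octanol, beside 0.13 and 0.14 log2 over all genes. Among all genes 13.5% were lower and 14.7% higher after vehicle, and 13.2% and 16.7% after octanol. Among 13 partners and corepressors of the 9 gene products, 1 was higher and 0 lower after vehicle, and 3 were higher and 1 lower after octanol. Rxra, the retinoid receptor that pairs with Nr4a1 and Nr4a2, passed as higher, with differences of 0.63 log2 (vehicle) and 0.73 log2 (octanol). Dnm2, a dynamin that binds Arc, was lower by 0.51 log2 after octanol, Ube3a, a ubiquitin ligase linked to Arc, was higher by 0.40 log2, and Rxrg was called higher with both fractions under background.

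Of 13 neuronal late response genes, 5 were lower and 3 higher after vehicle, and 5 lower and 4 higher after octanol. For this and the next lists, the shares over all genes were 13.5% lower and 14.7% higher after vehicle, and 13.2% and 16.7% after octanol. The largest were Rgs2, a regulator of G protein signaling (-6.16 log2 after vehicle, at least 26.1-fold), Plk2, a kinase (-4.80 log2, at least 22.6-fold), and Ptgs2, the inducible cyclooxygenase (-2.80 log2, at least 2.25-fold). Syt4, a synaptotagmin, passed as higher in both exposures, at 1.05 log2 after vehicle and 1.27 log2 after octanol. Genes known to rise with activity in olfactory sensory neurons went the other way, with 7 of 8 higher and 0 lower in both exposures and medians of 1.02 and 1.18 log2. Among them were Pcdh10, a protocadherin (1.80 log2 after vehicle), Lrrc3b (1.37 log2), Pcp4l1 (1.27 log2) and Rgs7 (1.07 log2). S100a5, the gene the sort follows, was higher by 0.82 and 0.86 log2. It is 1 of the 8 and enters the medians, and the sort by its reporter selects for this direction. Of 7 measured heat shock genes, 1 was higher and 1 lower after vehicle, and 1 higher and 2 lower after octanol. Hspa1a, a stress-inducible chaperone gene, was the one lower in both, at -1.20 and -1.64 log2, and its part and that of stress during dissociation in the lower immediate early signals was not tested.

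**Figure D3:**
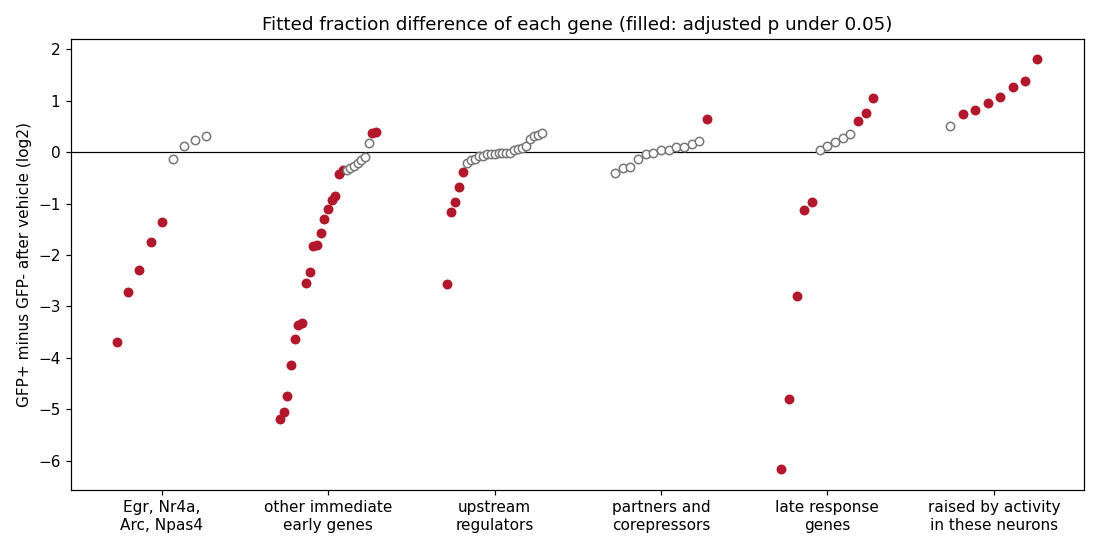
Fitted difference between GFP+ and GFP- cells after vehicle (log2, vertical axis) for every measured gene of the 9 and of 5 related lists, each point 1 gene, sorted within its list, filled where the adjusted p is under 0.05. The immediate early list reaches -5.19 log2, and 7 of 8 genes raised by activity in these neurons lie above 0 as filled points. S100a5, which the sort follows, is 1 of these 8.

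Octanol changed none of the 9 genes by the test over all genes. The change of the GFP+ to GFP- ratio with octanol passed for 0% of 19505 genes in limma, where 886 genes (4.54%) had an unadjusted p under 0.05 and the smallest adjusted p was 0.863. None of the 9 genes had an unadjusted p under 0.05 for the ratio, and all had an adjusted p of 0.998. The difference between exposures was -0.38 log2 for Egr1 (interval -0.86 to 0.10), 0.07 for Egr2 (-0.43 to 0.57), 0.42 for Nr4a1 (-0.38 to 1.22), 0.87 for Nr4a2 (-0.40 to 2.13) and 0.39 for Nr4a3 (-0.11 to 0.89). For the others it was -0.28 log2 for Egr3 (-0.88 to 0.31), 0.13 for Egr4 (-0.24 to 0.51), -0.40 for Arc (-0.80 to 0.01) and -0.12 for Npas4 (-0.48 to 0.25). All 9 intervals include 0, and those of Nr4a1 and Nr4a2 are the widest.

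Within GFP+ cells, octanol against vehicle gave 0% of genes past the adjusted threshold in limma, with 727 genes (3.73%) at an unadjusted p under 0.05 and a smallest adjusted p of 0.9996. Egr1 was the 1 of the 9 genes with an unadjusted p under 0.05. As given above, its 4 values after octanol lie under its 4 values after vehicle, at 8.08 ± 0.13 against 8.57 ± 0.11 log2 (SD, n = 4). The difference was -0.50 log2 (SE 0.11, interval -0.75 to -0.24), with an unadjusted p of 0.00144 and an adjusted p of 0.9996 in limma. An exact permutation test of this value, 2-sided, gave p = 0.0286, the smallest that 4 against 4 arrays can give. Any values without overlap give this p, so it adds nothing to the lack of overlap. Non-overlapping values of this kind, 1 of 9 genes here, occurred in 2.21% of all genes. Over the settings tried, the difference ran from -0.55 to -0.45 log2, with adjusted p from 0.897 to 1.000 in limma. Neutrophil markers in the same cells ran from 10.01 to 11.48 after vehicle and from 11.24 to 14.19 after octanol, as the log2 of their summed signals, and their part in the Egr1 value was not tested.

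For the other genes in GFP+ cells the octanol effect was -0.05 log2 for Egr2 (interval -0.38 to 0.28), 0.17 for Nr4a1 (-0.46 to 0.81), 0.35 for Nr4a2 (-0.19 to 0.90) and 0.05 for Nr4a3 (-0.43 to 0.54). It was 0.09 log2 for Egr3 (-0.36 to 0.55), -0.12 for Egr4 (-0.48 to 0.25), -0.40 for Arc (-0.89 to 0.09) and -0.21 for Npas4 (-0.46 to 0.03). Every one of these intervals includes 0, and those of Nr4a2, Nr4a3, Egr4, Arc and Npas4 describe signals near or under background.

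Within GFP- cells, octanol against vehicle again gave 0% of genes past the adjusted threshold in limma, with 894 genes (4.58%) at an unadjusted p under 0.05 and a smallest adjusted p of 0.982. Egr3 was the 1 of the 9 genes with an unadjusted p under 0.05, on the probe set used. It stood at 8.0 ± 0.13 log2 after octanol and 7.62 ± 0.18 log2 after vehicle (SD, n = 4), without overlap, which 1 of 9 genes and 2.57% of all genes showed. The difference was 0.37 log2 (SE 0.13, interval 0.08 to 0.66), with an unadjusted p of 0.0164 and an adjusted p of 0.982 in limma. An exact permutation test gave p = 0.0286, which any 4 against 4 values without overlap give. The other probe sets of Egr3 gave -0.01 log2 for the one under background and group means of 7.48 and 7.46 log2 for the other. The other 8 genes had effects from -0.51 log2 for Nr4a2 (interval -1.49 to 0.46) to -0.0044 for Arc (-0.28 to 0.28), with Egr1 at -0.11 (-0.60 to 0.37), Egr2 at -0.12 (-0.59 to 0.35), Nr4a1 at -0.25 (-0.76 to 0.27) and Nr4a3 at -0.33 (-0.99 to 0.33).

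**Figure D4:**
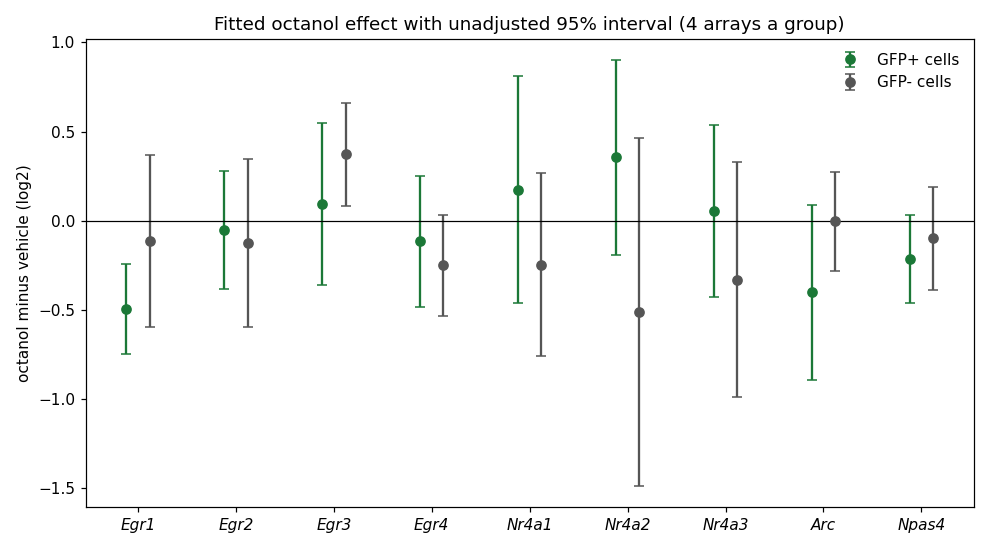
Fitted octanol minus vehicle difference (log2, vertical axis) of each gene in GFP+ cells (green) and GFP- cells (grey), with unadjusted 95% intervals as bars, from 4 arrays a group. The interval of Egr1 in GFP+ cells (-0.75 to -0.24) and that of Egr3 in GFP- cells (0.08 to 0.66) leave out 0, and none passed after adjustment over all genes.

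In GFP- cells, 1 pool of each exposure stood at the same end of its group in all 5 genes that differed between the fractions. Of the GFP- arrays after vehicle, pool 2 was lowest for 5 of 5 genes, with deviations from the group mean of -0.65 log2 for Egr1, -0.32 for Egr2, -0.70 for Nr4a1, -1.42 for Nr4a2 and -0.62 for Nr4a3. Fos was also low there, at -0.87 log2 from its group mean, and so was Btg2, at -1.04 log2. Among the GFP- arrays after octanol, pool 3 was highest for 5 of 5 genes, by 0.40 log2 for Egr1, 0.58 for Egr2, 0.29 for Nr4a1, 0.76 for Nr4a2 and 0.71 for Nr4a3. Fos and Btg2 were not high in that pool, at -0.10 and -0.21 log2. Further GFP- arrays lay to 1 side of their group mean for 5 of 5 genes. They were vehicle pool 1, above it, and octanol pools 1 and 4, below it, with octanol pool 1 the lowest for 4 of 5 genes. Deviations within a group sum to 0, so 1 array far to one side moves the others to the opposite side. The sides of these further arrays are therefore not separate observations. The GFP+ arrays went both ways. In pool 1 after vehicle, Nr4a1 and Nr4a2 deviated by -0.81 and -0.52 log2 but Egr2 and Nr4a3 by 0.25 and 0.31, and in pool 4 after octanol Egr1 deviated by 0.18 and Nr4a2 by -0.57. On the vehicle GFP- array of pool 2, summed markers deviated by -1.03 log2 for progenitors, -0.27 for monocytes and macrophages and -0.21 for neutrophils, and by 0.43 for lymphocytes. There, microvillar and tuft cell markers deviated by -0.21, horizontal basal cell markers by -0.36, Bowman gland markers by 0.36 and the 1 measured erythroid marker by -1.07. On the octanol GFP- array of pool 3, markers of progenitors, monocytes and macrophages, neutrophils and lymphocytes deviated by -0.19, -0.20, -0.31 and -0.57 log2. On that array, those of microvillar and tuft cells deviated by 0.44, horizontal basal cells by -0.47, Bowman glands by -1.10 and the erythroid marker by -0.23. Summed lymphocyte markers in GFP- cells fell from pool to pool with the replicate number in both exposures. They went from 13.40 log2 in pool 1 to 10.64 in pool 4 after vehicle, and from 12.46 to 10.45 after octanol. No other marker list fell this way in both exposures. The part of these cells, or of anything shared by a replicate number, in the shared deviations was not tested. Without vehicle pool 2, the fitted Nr4a2 difference after vehicle was -2.93 log2, the farthest from 0 of the leave-one-out values.

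**Figure D5:**
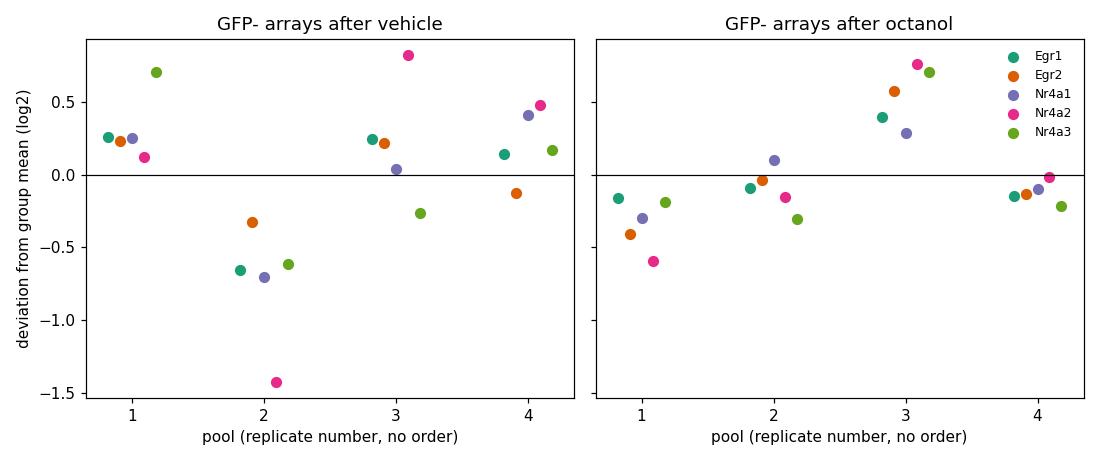
Deviation of each GFP- array from its group mean (log2, vertical axis) for Egr1, Egr2, Nr4a1, Nr4a2 and Nr4a3 in each pool (horizontal axis, replicate numbers, not known to mark an order), after vehicle (left) and after octanol (right). All 5 points of vehicle pool 2 lie under 0, and all 5 points of octanol pool 3 lie above it. All 5 points of vehicle pool 1 also lie above 0, and all 5 points of octanol pools 1 and 4 lie under it. The deviations of a gene within a group sum to 0, so these sides follow in part from the far arrays.

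The genes most like each of these in profile were found over the 16 arrays, by the root mean square difference between profiles centred on their own means, among the genes outside the 9. The 16 arrays share fractions and pools, so a gene that differs between the fractions by a like amount comes out near, and no p is given. Of the genes named, Ptpn7, Ttk, Melk, Cldn4, Cables2, Zmynd12 and Defb50 have means under background. Egr1 was nearest to Grasp, a scaffold protein gene (0.27 log2), Adgrg2, an adhesion receptor gene (0.30), and Pstpip2, a myeloid cytoskeletal adaptor gene (0.33), beside 1.96 for Egr1's own spread. Egr2 was nearest to Cat, which encodes catalase (0.25), Ehf, an epithelial ETS factor (0.26), and Pam, a peptide-amidating enzyme (0.26). Nr4a1 was nearest to Adcy7, an adenylyl cyclase of immune cells (0.26), Ptpn7, a leukocyte phosphatase (0.30), and Ttk, a spindle checkpoint kinase (0.31). Nr4a2 was nearest to Fosb, a partner of Jun (0.47), Cdc25a (0.49) and Melk (0.49), genes of the cell cycle, against its own spread of 1.10. Nr4a3 was nearest to Cldn4, a claudin (0.27), Cables2 (0.28) and the odorant receptor Olfr324 (0.30). For Egr3 (Kcnj14, Zmynd12 and Ssc5d, 0.15 to 0.16) and Arc (Smurf2, Defb50 and Asb7, 0.16 to 0.18) the nearest genes are flat, as the genes themselves have spreads of 0.27 and 0.28 log2.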

How the data were processed

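Log2 signals were deposited by the authors, who computed them with Affymetrix Expression Console per the submitters' processing notes, from arrays of biotinylated cRNA. The sources used here do not give the program's version or options, and the values were used as deposited. Of 28846 probe sets, 19572 carry 1 gene symbol in GEO's platform annotation, 0 several and 9274 none, and taking the highest mean per gene left 19505 genes, all matched to RefSeq (GRCm38.p6). The fractions were compared with limma 3.58.1 in R 4.3.3 on all 16 arrays, each pool having a fixed term, and octanol with vehicle within a fraction on 8 arrays. Tests are 2-sided, adjusted with Benjamini-Hochberg over all genes (threshold 0.05), and were tested on simulated data. A fold with arrays under background is a bound, with such values raised to background in the lower group only. It leaves out the spread over pools.

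GFP+ and GFP- arrays of 1 exposure and number were taken as the same mice, since 24 mice in pools of 3 give 8 pools. Their residuals correlated at 0.0779 to 0.222, with 6 of 8 above 0.1. Pairs of the same number but the other exposure, from different mice, correlated at 0.0128 to 0.128, with 3 of 8 above 0.1. All other GFP+ and GFP- pairs ran from -0.231 to 0.206, with 5 of 48 above 0.1. These ranges overlap, so the correlations alone do not settle the pairing. The genes and lists were chosen with earlier results of these data known. All 9 genes are named, as are up to 4 members of each pathway list with the largest called difference and the 3 genes nearest in profile to each gene above background in any group.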

Additional observations from a re-analysis of the deposited data

Results flagged for a closer look

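In 4 of 36 groups of 4 arrays, each 1 of the 9 genes in 1 group, 1 array stood far from the other 3: its gap to the nearest, divided by the group's range, exceeded Dixon's critical value for 4 samples, as about 1 of 20 groups do by chance. For Egr1 in GFP- cells after octanol, pool 3 was highest at 12.54 log2. For Egr1 in GFP- cells after vehicle, pool 2 was lowest at 11.60 log2. For Egr1 in GFP+ cells after vehicle, pool 2 was also lowest, at 8.41 log2. For Nr4a3 in GFP- cells after octanol, pool 3 was highest at 7.08 log2. The GFP- array of vehicle pool 2 was also the lowest of its group, and that of octanol pool 3 the highest, for the other genes that were lower in GFP+ cells, but by smaller shares of the range. The GFP+ array of vehicle pool 2 went both ways, with Nr4a1 and Nr4a2 at 0.27 and 0.50 log2 above their group means.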

How the results depend on the processing

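Scaling moved the counts over all genes most. After vehicle 4561 genes were higher in GFP+ cells with quantile normalization, 12759 when arrays were centred on their medians and 630 with centring on odorant receptors (4387 lower), and 52.2% of calls being higher became 65.0%, 86.5% and 12.6%. After octanol 11401 genes were higher with median centring, and 536 higher and 8740 lower with receptor centring (55.9% became 84.9% and 5.78%). The median difference of all genes after vehicle, 0.13 log2 as deposited, was 0.46 with median centring and -0.17 with receptor centring, so a difference of this size depends on the scaling. Of the 9 genes, 1 passed as higher after vehicle with quantile normalization and 3 with median centring, and 1 after octanol with median centring. With tests limited to genes above background, 3 passed as lower in either exposure, because Nr4a2 and Nr4a3 drop out of the test. The ratio gave 1 gene higher with an intensity trend and robust variances.

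Directions that turned belong to differences that did not pass. Between fractions after vehicle they were Egr3 (-0.026 for the mean of its probe sets, -0.35 and -0.030 for its other probe sets), Egr4 (0.19, median centring), and Arc (-0.19) and Npas4 (-0.063) with receptor centring. After octanol they were Egr3 (-0.47 with receptor centring, -0.15 by the dim probe set), Egr4 (0.055 with quantile normalization, 0.26 with median centring) and Npas4 (-0.38, receptor centring). For the ratio they were Egr2 (-0.13) and Egr4 (-0.062) with receptor centring and Egr3 (0.049 for the mean of probe sets, 0.20 and 0.22 for the others). For octanol in GFP- cells they were Egr1 (0.040), Egr2 (0.030), Arc (0.15) and Npas4 (0.056) with receptor centring, Arc (0.039) with median centring and Egr3 (-0.013, dim probe set). The values by single Egr3 probe sets were added after seeing the data.

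Leaving out 1 pool at a time gave 1724 to 2882 genes higher after vehicle and 1799 to 3115 after octanol; the lowest counts came without vehicle pool 4 (1724) or 1 (1836) and without octanol pool 1 (1799) or 4 (1970), with fewer samples. Of the 9 genes 5 passed as lower after vehicle each time, and 4 to 6 after octanol. Ranges that cross 0 were, after octanol, -0.019 to 0.072 (Egr3), -0.032 to 0.019 (Egr4) and -0.010 to 0.21 (Npas4); for the ratio, -0.090 to 0.25 (Egr2) and -0.43 to 0.0021 (Egr3); for octanol in GFP+ cells, -0.16 to 0.035 (Egr2), -0.021 to 0.29 (Egr3), -0.21 to 0.0059 (Egr4), -0.10 to 0.34 (Nr4a1) and -0.16 to 0.20 (Nr4a3); in GFP- cells, -0.32 to 0.012 (Egr2) and -0.062 to 0.061 (Arc).

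Without the replicate block, 2456 genes were higher and 2535 lower after vehicle and 2806 and 2474 after octanol, with 5 of the 9 genes lower in each. With the replicate number as a block, or all 16 arrays with the pool as a random block (correlation 0.18), octanol against vehicle gave 0 genes in either fraction. Signals near background limit what can be said of Egr4, Nr4a2, Nr4a3, Arc and Npas4.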
